A study of Mus musculus with 6 samples.

Results

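Glutamate is the main excitatory transmitter of the cortex, and the receptors for it, together with the proteins bound to them, were followed through 39 genes of the 23621 in the deposited gene table. Members were picked out by gene symbol, with earlier results of these data known. They comprised 18 channel subunits of the glutamate receptor family, 8 metabotropic receptors and 13 auxiliary subunits or relatives of these. The channel subunits were 4 of the AMPA type (Gria1 to Gria4), 7 of the NMDA type (Grin1, Grin2a to Grin2d, Grin3a and Grin3b), 5 of the kainate type (Grik1 to Grik5) and the delta type, represented by Grid1. The auxiliary group held the TARP family (transmembrane AMPA receptor regulatory proteins), 2 cornichons (Cnih2 and Cnih3), Neto2, and 3 Shisa proteins (Shisa6, Shisa7 and Shisa9). The TARP family is taken here as the 7 genes Cacng2 to Cacng8, with Cacng6 counted in only as a relative.

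RNA-seq was performed on whole cortex dissected at postnatal day 0 from 3 Tle4-/- mice and 3 wild-type littermates. Tle4 encodes a co-repressor of transcription. All animals carried a mix of the C57BL/6J, 129S6 and CD1 strains. The labels do not give the design of the Tle4 allele, and they do not tie a library to a litter, so p-values measure only the spread between these samples.

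AMPA receptors carry the fast current at excitatory synapses. NMDA receptors need a co-agonist as well as glutamate and, at resting voltage, are blocked by magnesium, so that they act as detectors of coincident activity. In the developing forebrain the Grin2b subunit is known to dominate NMDA receptors early and to be joined by Grin2a as the cortex matures. Metabotropic receptors signal through G proteins, and auxiliary subunits govern the trafficking and gating of the channels they bind.

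Among AMPA subunits, Gria2 holds a special place because its RNA is edited at one codon in the channel pore, and the edited subunit keeps calcium out. The stretch of 54 bases around that codon is shown for the 4 genes, since Gria2 led the family in these libraries and the edited site is what sets it apart. The sequences come from the GENCODE M21 transcripts of GRCm38. Capitals mark the codon at the pore site, which reads CAG or CAA in the genome, both of which code for glutamine.
Gria1 (chr11:57243064-57243117, plus strand): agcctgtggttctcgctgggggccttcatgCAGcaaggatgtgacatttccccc
Gria2 (chr3:80706890-80706943, minus strand): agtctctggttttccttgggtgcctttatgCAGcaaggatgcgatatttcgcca
Gria3 (chrX:41610235-41610288, plus strand): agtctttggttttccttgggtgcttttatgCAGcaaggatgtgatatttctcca
Gria4 (chr9:4464116-4464169, minus strand): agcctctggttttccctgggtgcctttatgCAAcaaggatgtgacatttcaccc

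Each stretch lies in 1 coding exon, exon 11 of 16 in Gria1, Gria2 and Gria3 and exon 12 of 17 in Gria4. Over the 54 bases, Gria3 differed from Gria2 at 4 positions, Gria4 at 7 and Gria1 at 11. Counts per gene do not distinguish edited from unedited RNA, so the values below give the amount of Gria2 RNA and not the state of its pore codon.

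The libraries held 18617408 to 21632607 counts. Tle4 stood at 198, 142 and 166 CPM (counts relative to library depth, scaled between libraries with TMM factors) in the wild-type libraries and at 69.3, 86.8 and 86.8 CPM in the mutants, and it fell by 1.06 on the log2 scale (edgeR adjusted p = 0.0377). Every mutant library held 66194 to 79080 counts of Xist against 11 to 37 in the wild type, so sex and genotype cannot be told apart here. Ddx3y, which is Y-linked, had 1463 and 1891 counts in wild type 1 and 2 and 0 to 2 in the other libraries. Wild type 3 thus held few counts of both, 37 of Xist and 2 of Ddx3y. The excitatory neuron genes Slc17a7, Slc17a6 and Tbr1 were present in all libraries, from 35.7 to 411 CPM.

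Levels of different genes are compared below in the deposited FPKM (fragments per kilobase of gene length and per unit of library depth), which is scaled to gene length, as mean ± SD over the 6 libraries. The highest levels of the 39 genes belonged to auxiliary subunits and not to the receptors they serve. Cnih2 stood above 99.5% of the 16274 genes tested, Cacng4 above 97.7% and Neto2 above 97.0%. The first channel subunits followed at 95.1% for Grik5 and 95.0% for Gria2, while the median FPKM of all genes tested was 3.98. Part of this order depended on the gene length used. With CPM per kilobase of merged exons, Cnih2 (206) and Cacng4 (78.2) still led, but Gria2 (62.0) and Grik5 (59.8) stood above Neto2 (55.2). Per kilobase of the longest coding transcript, Gria2 (93.0) and Grik5 (82.1) also stood above Cacng4 (79.9).

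**Figure D1:**
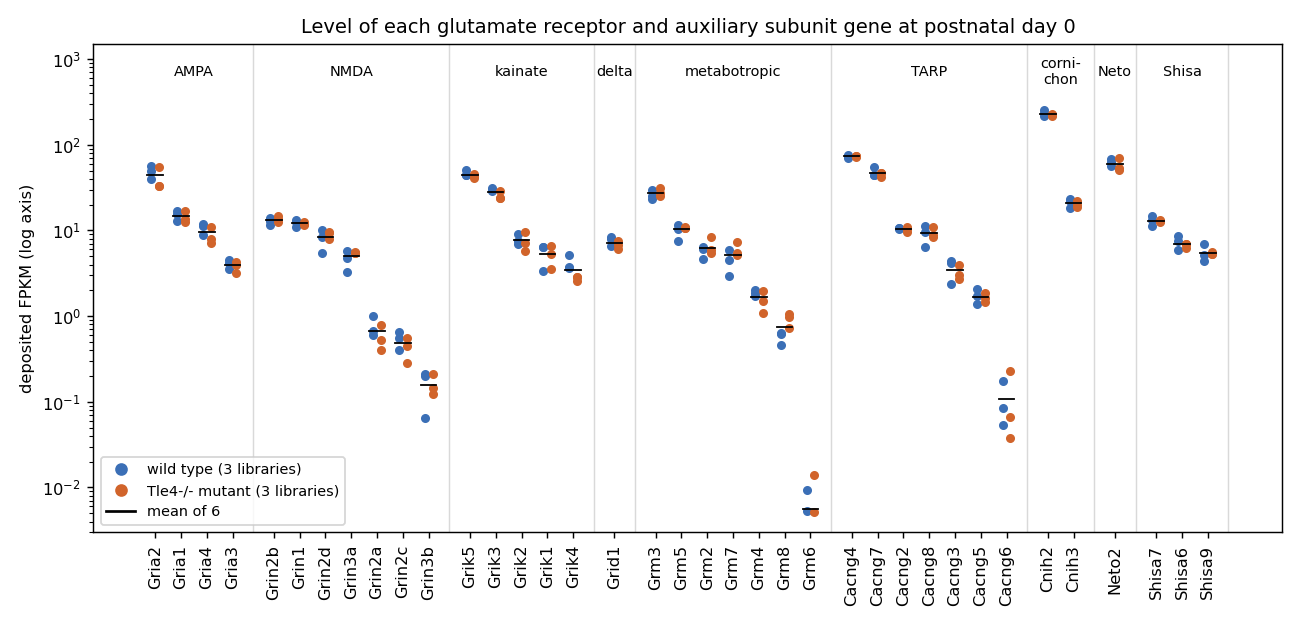
Deposited FPKM (log axis) of 37 of the 39 genes by family, with 1 point per library, wild type in blue and Tle4-/- in orange, and a line at the mean of 6. Cnih2 stands highest at 228 and Grm6 lowest; the 2 libraries in which Grm6 is at 0 cannot be drawn on a log axis.

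Gria2, the subunit that limits calcium entry, was the leading AMPA subunit in every library. Its FPKM was 39.5, 50.0 and 55.7 in wild type 1 to 3 and 32.7, 32.6 and 54.6 in mutant 1 to 3. Wild type 3 and mutant 3 were high together, and the genotypes overlapped. Gria2 made up 60.4 ± 5.50% (SD, n = 6) of the summed AMPA FPKM.

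Gria1, which forms channels with Gria2 in excitatory neurons, came second with 15.3, 17.0 and 13.0 FPKM in the wild type and 12.6, 13.6 and 16.7 in the mutants, a share of 20.5%. Gria4 had 11.2, 11.8 and 8.92 FPKM in the wild type and 11.0, 7.04 and 7.91 in the mutants, a share of 13.6%. Gria3, the X-linked subunit, was lowest with 4.19, 4.51 and 3.51 FPKM in the wild type and 3.22, 3.94 and 4.33 in the mutants. The ranges of neighbouring subunits stayed apart in this order, and for each subunit the genotypes overlapped.

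The order below Gria1 depended on the length used for scaling. The deposited FPKM divides by a length that, for 27 of the 39 genes, equals to within 1 bp the sum of all distinct annotated exons with overlaps counted more than once, which lowers genes with many annotated transcripts. That length was 11985 bp for Gria1, against 6043 bp once overlapping exons were merged. Over the 39 genes it ranged from 0.467 (Grik1) to 2.14 (Shisa7) times the merged length. With merged exons Gria1 made up 27.3% of the AMPA sum and Gria4 8.89%, and Gria4 exceeded Gria3 in only 4 of 6 libraries. Per longest coding transcript Gria3 was the higher in 5 of 6. Gria2 led under both scalings, at 56.9% with merged exons.

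Among NMDA subunits, Grin2b and the obligatory subunit Grin1 were the most abundant. Grin2b had 12.9, 13.8 and 11.5 FPKM in the wild type and 14.8, 13.6 and 12.5 in the mutants. Grin1 ranged from 11.0 to 13.4 FPKM. These 2 did not separate. Grin2b was the higher in 4 of 6 libraries by FPKM, whereas Grin1 was the higher in 5 of 6 with merged exons and in 6 of 6, by 2.51-fold, per length of the longest coding transcript. Grin1 also overlaps Grin1os, which had a mean of 163 counts, and whether counting used the strand is not given in the sources used here.

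Grin2a, the subunit known to come up as the cortex matures, was near the bottom of the family. Its FPKM was 0.608, 0.678 and 0.995 in the wild type and 0.399, 0.798 and 0.523 in the mutants. It was highest in wild type 3 and lowest in mutant 1. Grin2b exceeded it in every library, by 11.6-fold to 37.2-fold with a median of 20.8-fold. With merged exons the excess was 10.1-fold to 32.5-fold, and per longest coding transcript 8.52-fold to 27.4-fold.

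Of the GluN2 subunits, which bind glutamate, Grin2b made up 58.1 ± 3.34% of the summed FPKM and Grin2a 3.03 ± 1.31%. The second GluN2 subunit was Grin2d, known as an early form of slow decay, at 36.7%. It was lowest in wild type 3 at 5.47 FPKM and lay between 7.92 and 9.99 FPKM in the other libraries. Grin2c, best known from the cerebellum, made up 2.15%. Grin2a exceeded it in 4 of 6 libraries by FPKM and in 6 of 6 with merged exons, by 1.77-fold, and per longest coding transcript, by 2.11-fold. With merged exons the shares were 63.8% for Grin2b and 30.3% for Grin2d.

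The glycine-binding GluN3 subunits differed widely. Grin3a, known from the young brain, had 4.79, 5.80 and 3.29 FPKM in the wild type and 5.42, 5.44 and 5.67 in the mutants. Grin3b, known from motor neurons, had 0.198, 0.211 and 0.0639 FPKM in the wild type and 0.212, 0.124 and 0.143 in the mutants, which rests on 6 to 23 counts per library. Grin3a exceeded Grin3b by 24.2-fold to 51.4-fold. Grin3b overlaps Tmem259, which had a mean of 2250 counts, so its few counts are uncertain.

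**Figure D2:**
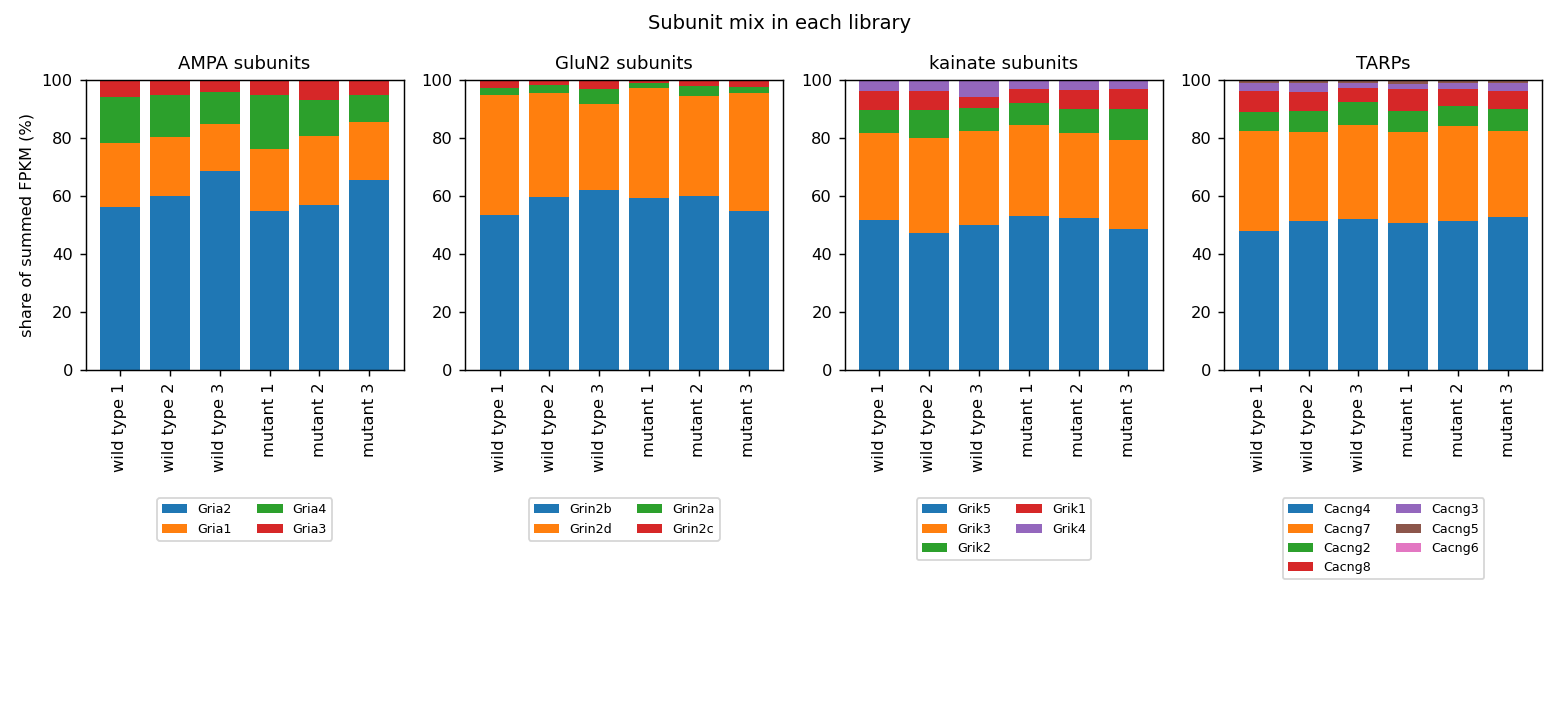
Share (%) of each gene in the summed FPKM of its family in each library, for AMPA, GluN2 and kainate subunits and TARPs. Gria2, Grin2b, Grik5 and Cacng4 form the bottom bar in all 6 libraries, and Grin2a stays between 1.59% and 5.37% of the GluN2 sum.

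Kainate receptors combine low-affinity subunits (Grik1 to Grik3) with high-affinity ones (Grik4 and Grik5) that do not form channels alone. Grik5 led in every library, with 50.5, 44.9 and 44.3 FPKM in the wild type and 41.0, 43.4 and 45.1 in the mutants, and made up 50.5 ± 2.35% of the family. Grik3 followed with 29.5, 31.1 and 29.1 FPKM in the wild type and 24.1, 24.0 and 28.7 in the mutants, a share of 31.1%. Grik2, Grik1 and Grik4 averaged 7.69, 5.26 and 3.48 FPKM. The order of Grik1 and Grik4 turned with the scaling: Grik1 was higher in 5 of 6 libraries by FPKM, and Grik4 in 6 of 6 with merged exons. Per longest coding transcript Grik1 was again the higher, in 5 of 6.

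The summed FPKM of the kainate family was 89.0 ± 7.88 and that of the AMPA family 72.5 ± 12.1. With merged exons the order of the means turned, at 101 ± 8.42 for kainate and 108 ± 17.2 for AMPA, but the libraries were divided. Kainate was the higher in wild type 1, mutant 1 and mutant 2, and AMPA in wild type 2, wild type 3 and mutant 3. Per longest coding transcript the means were 128 ± 10.7 for kainate and 150 ± 24.9 for AMPA, with AMPA the higher in every library but mutant 2. NMDA subunits summed to 40.2 ± 3.68 FPKM. None of these sums separated the genotypes. Grid1, a delta subunit that binds cerebellins and acts as an organizer of synapses, had 8.37, 8.01 and 6.62 FPKM in the wild type and 6.05, 6.74 and 7.56 in the mutants, with a mean of 7.22.

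Grm3, a group II receptor that inhibits adenylyl cyclase and is known from glia as well as neurons, led the metabotropic receptors. It had 29.9, 25.3 and 23.2 FPKM in the wild type and 31.5, 27.3 and 25.0 in the mutants, or 51.9 ± 1.83% of the family. Grm5, the group I receptor that couples to phospholipase C, had 11.7, 10.5 and 7.52 FPKM in the wild type and 10.8, 10.6 and 11.0 in the mutants. Wild type 3 held the lowest value of both genes, and the genotypes overlapped.

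Grm2, the other group II receptor, averaged 6.17 FPKM and did not separate from Grm7, a presynaptic group III receptor, at 5.22 FPKM. Grm2 was the higher of these 2 in 5 of 6 libraries. Grm4 averaged 1.69 and Grm8 0.746 FPKM, both group III receptors. Grm6, known from bipolar cells of the retina, had 0 to 3 counts per library and did not pass the filter on low counts.

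TARPs bind AMPA receptors and govern their trafficking and gating. Cacng4 led the TARPs and was among the steadiest of the 39 genes, with 76.5, 74.0 and 70.5 FPKM in the wild type and 74.4, 72.9 and 74.8 in the mutants. It made up 50.9 ± 1.71% of the TARP sum. Cacng7 came second with 55.5, 44.5 and 43.9 FPKM in the wild type and 46.2, 46.5 and 42.2 in the mutants.

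Cacng2 (stargazin), the founding TARP, had 10.4, 10.6 and 10.7 FPKM in the wild type and 10.9, 9.65 and 10.4 in the mutants. Cacng8, known from the hippocampus, had 11.2, 9.47 and 6.39 FPKM in the wild type and 11.0, 8.41 and 8.90 in the mutants. Their order turned with the scaling. Cacng2 was the higher in 4 of 6 libraries by FPKM, whereas Cacng8 was the higher in 5 of 6 with merged exons and in 6 of 6, by 1.67-fold, per length of the longest coding transcript. Cacng2 overlaps A730060N03Rik, which had a mean of 128 counts.

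Cacng3 had 4.44, 4.16 and 2.35 FPKM in the wild type and 2.72, 3.05 and 3.97 in the mutants. Cacng5 had 2.07, 1.71 and 1.38 FPKM in the wild type and 1.87, 1.44 and 1.64 in the mutants. Both were lowest in wild type 3. Cacng6, a relative in the same gene family, had 2 to 12 counts per library and did not pass the filter.

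Cacng7, Cacng8 and Cacng6 are neighbours on 1 strand of chromosome 7 (GRCm38, chr7:3332955-3368221, chr7:3390683-3415648 and chr7:3424195-3435667), within 102713 bp. Their mean levels in that order were 46.5, 9.22 and 0.107 FPKM. Cacng7 exceeded Cacng8 in every library, by 4.21-fold to 6.87-fold. With merged exons the ratio was 3.09 to 5.03, and per longest coding transcript 2.76 to 4.49. The 3 neighbours thus spanned most of the range of the TARP family.

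Cnih2, a cornichon that promotes export of AMPA receptors from the endoplasmic reticulum, had the highest FPKM of all 39 genes. Its values were 257, 232 and 214 in the wild type and 221, 230 and 214 in the mutants. It exceeded Cnih3, at 20.6 FPKM on average, by 9.67-fold to 12.8-fold, and by 5.10-fold to 6.76-fold with merged exons. Cnih2 overlaps Yif1a, which had a mean of 217 counts against 4936 to 6370 for Cnih2.

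Neto2, an auxiliary subunit of kainate receptors, had 62.2, 69.0 and 56.1 FPKM in the wild type and 50.4, 53.3 and 70.2 in the mutants. The range of the mutant libraries enclosed that of the wild type. Shisa7 led the Shisa proteins, with 14.5, 13.3 and 11.1 FPKM in the wild type and 13.1, 12.8 and 12.5 in the mutants. Shisa6, which binds AMPA receptors at the synapse, and Shisa9, which alters their desensitization, averaged 7.02 and 5.45 FPKM. The order of Shisa6 and Shisa9 turned with the scaling. Shisa6 was the higher in 6 of 6 libraries by FPKM, and Shisa9 in 5 of 6 with merged exons or per longest coding transcript. Shisa7 made up 50.9 ± 3.74% of the 3 by FPKM and 61.5% with merged exons.

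The second question was whether the loss of Tle4 altered this mix. Counts were compared between genotypes for the 37 of 39 genes that passed the filter, and in bulk tissue fewer cells of a type and less RNA per cell cannot be told apart. No receptor or auxiliary gene passed the threshold of 0.05 in edgeR's quasi-likelihood test with Benjamini-Hochberg adjustment over all genes, where 18 of 16274 genes did (0.111%). The smallest adjusted p among the 37 was 0.997, for Grik4. Only Grik4 and Grm8, 2 genes, had an unadjusted p under 0.05, where 3.45% of all genes did. No receptor gene passed in any of the 12 alternative analyses, in which the smallest adjusted p was 0.287 for Grik4 with DESeq2. The authors' deposited table likewise gives none of the 39 an adjusted p under 0.05.

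Differences were small. Of the 37 genes, 32 (86.5%) had a log2 fold change within 0.3 of 0, against 82.9% of all genes tested. Among genes with a mean of at least 10 CPM the share was 91.2% of 34 receptor genes and 92.9% of all 10297. The mutant was higher for 12 genes and lower for 25. The share above 0 was 32.4%, against 48.7% of all genes, and the median log2 fold change was -0.05 against -0.01. This tilt was not stable: leaving out 1 library at a time gave 8 genes above 0 without wild type 3 and 21 without wild type 1. All 4 AMPA genes and all 5 kainate genes had log2 fold changes below 0, from -0.59 to -0.03, and Gria1, Gria3, Grik1 and Grik2 changed sign with a library left out. Metabotropic genes were above 0 in 5 of 7 cases, of which Grm5 turned below 0 with a library left out.

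**Figure D3:**
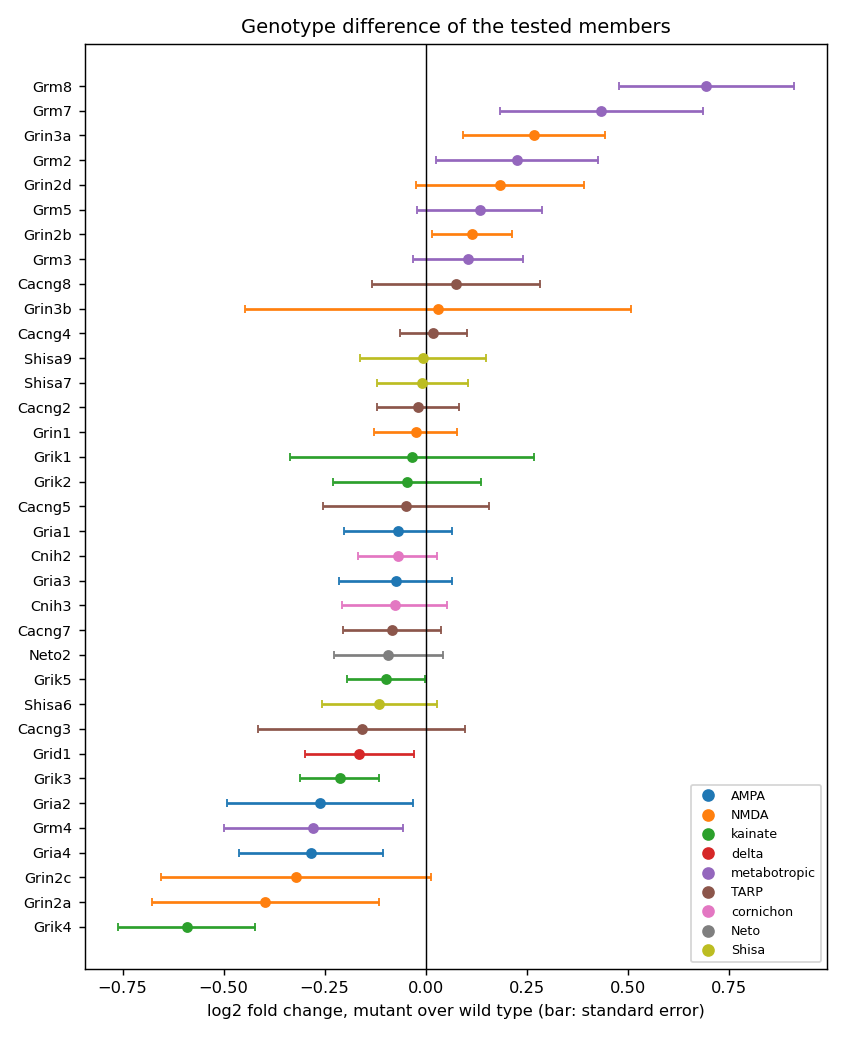
Log2 fold change, mutant over wild type, of 35 of the 37 tested genes with the standard error from the edgeR fit, coloured by family. Grm8 at 0.69 and Grik4 at -0.59 lie at the ends, and neither passed the threshold after adjustment over all genes.

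Grik4, a high-affinity kainate subunit, lies at chr9:42518135-42944493 on GRCm38. Its level was 26.4, 24.1 and 35.8 CPM in the wild type and 17.9, 19.5 and 19.9 CPM in the mutants. The genotypes did not overlap, and wild type 3 stood above the other wild-type libraries. The means were 28.8 ± 6.19 and 19.1 ± 1.07 CPM (SD, n = 3 each), a log2 fold change of -0.59 (SE 0.17, edgeR unadjusted p = 0.00625, adjusted p = 0.997). Over the 12 alternatives the log2 fold change ran from -0.70 to -0.40, and the unadjusted p was under 0.05 in 12 of 12. Within the kainate family its share was 4.51% in the wild type and 3.29% in the mutants. Grik5 is the other high-affinity subunit. Its ratio to Grik4 was 13.4, 12.4 and 8.51 in the wild type and 15.8, 15.3 and 15.7 in the mutants.

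Grm8, a presynaptic group III receptor that inhibits release, lies at chr6:27275119-28135178. Its level was 7.89, 7.85 and 5.80 CPM in the wild type and 13.5, 12.2 and 9.18 CPM in the mutants. All mutants were above all wild-type libraries. The means were 7.18 ± 1.20 and 11.6 ± 2.23 CPM (SD, n = 3 each), a log2 fold change of 0.69 (SE 0.22, edgeR unadjusted p = 0.0103, adjusted p = 0.9996). The alternatives gave 0.56 to 0.84, and the lowest adjusted p was 0.45, with DESeq2. For Grm7, another presynaptic group III receptor, the log2 fold change was 0.43 (SE 0.25), with overlapping genotypes. Grm4, also of group III, went the other way at -0.28 (SE 0.22), and its genotypes overlapped too.

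**Figure D4:**
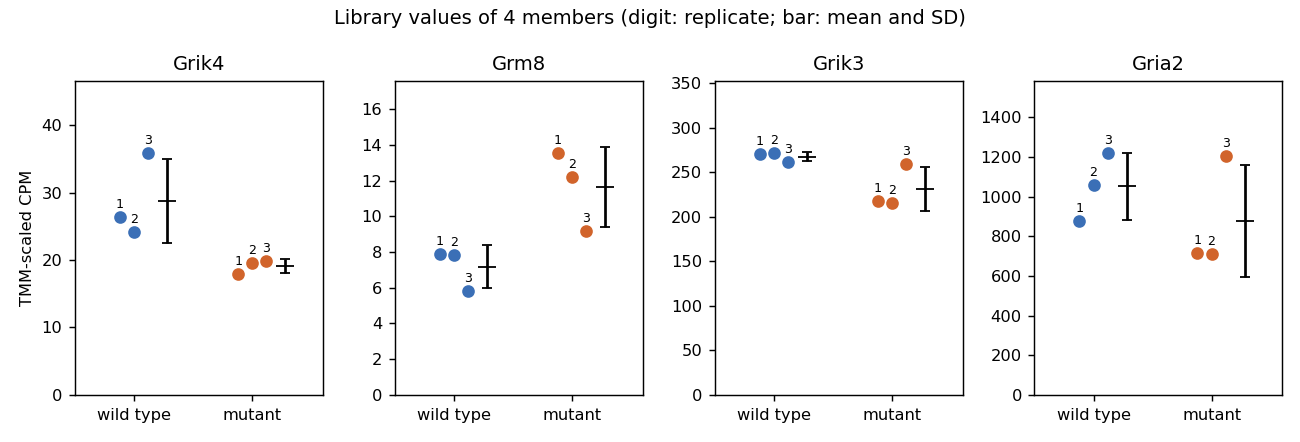
TMM-scaled CPM of Grik4, Grm8, Grik3 and Gria2 in each library, with the replicate number at each point and the mean and SD of each genotype as a bar. Genotypes do not overlap for the first 3 genes, while mutant 3 at 1202 CPM places Gria2 of that library within the wild-type range.

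The genotypes failed to overlap for 4 of the 37 genes, against 7.93% of all genes tested. Beside Grik4 and Grm8 these included Grik3. It had 270, 271 and 261 CPM in the wild type and 217, 216 and 260 CPM in the mutants, a log2 fold change of -0.21 (SE 0.10). Mutant 3 lay just below wild type 3, apart from the other mutants.

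Gria2 showed how far 1 library could move a value. It had 879, 1059 and 1217 CPM in the wild type and 717, 712 and 1202 CPM in the mutants, a log2 fold change of -0.26 (SE 0.23, edgeR unadjusted p = 0.293). Without mutant 3 the log2 fold change was -0.56 with an unadjusted p of 0.00377, and an adjusted p of 0.906 in edgeR. Grin2a and Gria4 had log2 fold changes of -0.40 (SE 0.28) and -0.28 (SE 0.18), both with overlapping genotypes. Grin2b stood at 0.11 (SE 0.10).

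Libraries differed in how high the receptor genes stood as a set. Wild type 3 held the lowest of 6 values for 19 of the 37 genes, against 22.9% of all genes tested, and wild type 1 the highest for 14, against 20.5%. The median log2 deviation from the genotype mean was 0.15 in wild type 1 and -0.16 in wild type 3, where 29 of 37 genes lay below 0. In the mutant libraries it lay between -0.03 and 0.02. Over all genes the medians lay between -0.01 and 0.01. For each gene the deviations within a genotype add up to 0, so the values of wild type 1 and wild type 3 are not separate observations. The genes for which wild type 3 was the highest library were Gria2, Grin2a, Grik4 and Shisa6.

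Slc17a7, the vesicular glutamate transporter of mature cortical neurons, had 121 and 127 CPM in wild type 1 and 2 and 50.0 CPM in wild type 3, with 72.2 to 104 CPM in the mutants. The part of this difference in the receptor levels was not tested.

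**Figure D5:**
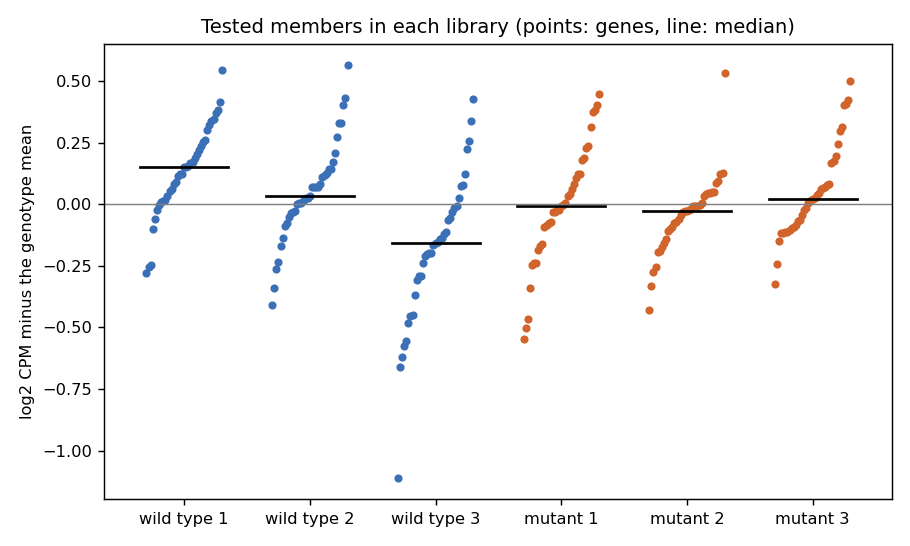
Deviation of each of the 37 genes from its genotype mean (log2 CPM) in each library, sorted within a library, with the median as a line. Wild type 1 lies above and wild type 3 below 0, with medians of 0.15 and -0.16.

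Markers of other tissue were read beside these results. The summed CPM of 12 striatal markers was 239.6 to 341.0 in the wild type and 226.8 to 233.9 in the mutants, lower in the mutant for 11 of 12. The 5 markers of the oligodendrocyte lineage summed to 246.6 to 277.8 CPM in the wild type and 285.0 to 315.7 in the mutants, higher for 5 of 5. These sums did not overlap between the genotypes. Their part in the receptor differences was not tested. Meningeal markers summed to 13.1 CPM in wild type 1 and 164 to 449 CPM elsewhere, and choroid plexus markers to 95.7 CPM in mutant 3 and at most 1.53 CPM elsewhere. The sums of the remaining lists overlapped between genotypes. By their means, markers were higher in the mutant for 8 of 8 of astrocytes and radial glia, 6 of 6 of meninges, 3 of 3 of choroid plexus and 3 of 3 of hippocampus. They were lower for 8 of 9 of interneurons, 4 of 4 of microglia, 3 of 6 of cortical glutamatergic neurons, 2 of 4 of endothelium, 1 of 4 of red cells and 2 of 3 of thalamus. The thalamic markers Gbx2 and Lhx9, the choroid plexus markers Folr1 and Kl and the red cell marker Hba-a2 averaged under 1 CPM. Hba-a2, with at most 0.09 CPM in a library, was the red cell marker that was lower.

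The rest of the glutamate synapse was read through a list of 39 further genes, of which 38 were tested. None passed the edgeR threshold in either direction, and 3 had an unadjusted p under 0.05, where 3.45% of all genes tested did. The mutant was higher for 21 and lower for 17, with a median log2 fold change of 0.02. The share above 0 was 55.3%, against 48.7% of all genes. The 20 scaffolds and enzymes of the postsynaptic density split 10 to 10. Camk2b, a subunit of the calcium-dependent kinase, averaged 648 CPM in wild-type and 721 CPM in mutant libraries. Shank1, a scaffold, stood at 462 and 510 CPM. Dlgap4 stood at 335 and 322 CPM and Dlg4 (PSD-95), which anchors TARPs, at 329 and 320 CPM.

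Of the 6 transporters, 4 were above 0 and none passed. The glial uptake transporters Slc1a3 and Slc1a2 stood at 179 and 127 CPM in the wild type and 208 and 140 CPM in the mutant. Slc1a1, a neuronal uptake transporter, averaged 60.7 and 68.1 CPM. Slc17a7 averaged 99.3 and 89.1 CPM, and Srr, which makes the co-agonist D-serine, 70.4 and 79.7 CPM.

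Of the 8 further assembly and auxiliary genes, 5 were above 0. Frrs1l, which takes part in AMPA receptor assembly, averaged 95.5 CPM in wild-type and 100.4 CPM in mutant libraries. Cpt1c averaged 54.3 and 60.2 CPM, Prrt1 38.5 and 40.1 CPM, and Cnih1 42.2 and 34.2 CPM. Among the ligands of delta and kainate receptors, the cerebellin Cbln1 averaged 39.6 and 40.7 CPM and C1ql3 6.52 and 6.30 CPM, while C1ql2 did not pass the filter.

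The genes with an unadjusted p under 0.05 were Gsg1l, Cbln4 and Dlgap1. Gsg1l, another auxiliary subunit of AMPA receptors, had 38.2, 26.8 and 35.8 CPM in the wild type and 19.2, 24.6 and 21.8 CPM in the mutants, a log2 fold change of -0.62 (SE 0.17, edgeR adjusted p = 0.833). Cbln4, a cerebellin, had 3.16, 5.03 and 1.67 CPM in the wild type and 0.982, 1.41 and 1.36 CPM in the mutants, a log2 fold change of -1.40 (SE 0.41). Dlgap1, a scaffold, averaged 154 and 180 CPM, a log2 fold change of 0.23 (SE 0.10). Of the 38 genes of this list that were tested, these 3 alone had genotypes that did not overlap, against 7.93% of all genes tested. The smallest adjusted p for this list in any alternative was 0.168, with DESeq2.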

How the data were processed

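The authors deposited 1 table with, per the file headers, whole-number counts and FPKM for every library, beside a p-value (raw and adjusted) from their genotype comparison. Per the submitters' processing notes, the tools were HISAT2 2.0.4 with StringTie and edgeR, on GRCm38.p4 or mm10. Neither the counting program nor the annotation release nor the strand setting is given in the sources used here.

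The deposited counts were compared with edgeR 4.0.16 in R 4.3.3: filterByExpr, TMM factors, a robust quasi-likelihood fit on genotype over 3 libraries each, a 2-sided test and Benjamini-Hochberg adjustment over all genes tested, with a threshold of 0.05. These steps were also run on simulated counts, with changes larger than those of the receptor genes. That run does not show whether changes as small as theirs would be called. Standard errors were obtained by dividing the size of a log2 fold change by the root of its F value. Levels between genes used the deposited FPKM, and TMM-scaled CPM per merged exon length or longest coding transcript of GENCODE M21 as alternatives. Shares are of a family's summed level and were not tested. Of the 39 genes, 17 overlap another row, and 29 have the same start and end as in GENCODE M21.

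Other alternatives were DESeq2 1.42.0 size factors or Wald test, limma-voom (3.58.1), no filter beyond 1 count, a mean of at least 1 CPM, a replicate block, and each library left out. Members and lists were chosen with earlier results of these data known. The results of 2 members are not reported here. By rule, every other member is named, with values in every library for those at an unadjusted p under 0.05, the highest of each family and the pairs known from development. Of the other synapse genes, those at an unadjusted p under 0.05 and up to 4 of each role with the highest level were named. Grik3 and the genes named for a sign change, an overlap or a library's extreme were chosen after their values were seen.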

Additional observations from a re-analysis of the deposited data

How the results depend on the processing

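Whether the replicate numbers pair the samples is not known. Deviations of same-numbered libraries correlated at -0.063, 0.1 and -0.018, and those of differently numbered ones from -0.089 to 0.099. These deviations are from means of only 3 libraries, so they cannot decide on pairing. With a replicate block edgeR called 9 genes in place of 18, none of them a receptor gene, and 3 receptor genes (Gria2, Grik4 and Grm8) had an unadjusted p under 0.05 in place of 2. DESeq2's Wald test called 58 genes and edgeR without mutant replicate 3 called 8. The count of receptor genes past the threshold and that of the synapse list were 0 in all 12 alternatives. With 1 library left out, 8 to 21 receptor genes were above 0. Of the 37 genes, 16 kept their sign in every alternative; the log2 fold changes of the other 21 were at most 0.184 in size.

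With merged exons or, second, the longest coding transcript, shares moved to 63.8% for Grin2b (merged exons), 59.4% and 64.2% for Grik5, 46.7% and 41.0% for Grm3, 48.0% and 46.0% for Cacng4, and 61.5% and 61.1% for Shisa7. The gene length is what differs between these scalings.

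With limma-voom and with the replicate block, log2 fold changes reversed to 0.00106 and 0.00156 for Shisa7 and 0.00788 and 0.0153 for Shisa9; the cause was not tested. With 1 library left out in turn, log2 fold changes ran from -0.199 to 0.0172 for Gria1, -0.174 to 0.04 for Gria3, -0.0975 to 0.0559 for Grin1, -0.0211 to 0.408 for Grin2d, -0.331 to 0.273 for Grin3b, -0.281 to 0.181 for Grik1, -0.274 to 0.112 for Grik2, and -0.0284 to 0.292 for Grm5. They ran from -0.0581 to 0.0299 for Cacng2, -0.392 to 0.027 for Cacng3, -0.00836 to 0.0647 for Cacng4, -0.182 to 0.128 for Cacng5, -0.149 to 0.0536 for Cacng7, -0.119 to 0.281 for Cacng8, -0.126 to 0.0214 for Cnih2, and -0.194 to 0.0185 for Cnih3. They ran from -0.257 to 0.0007 for Neto2, -0.242 to 0.0213 for Shisa6, -0.105 to 0.101 for Shisa7, and -0.148 to 0.178 for Shisa9. Depth limits Grm6, Cacng6 and Grin3b, each with at most 23 counts in a library.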
